A study of Homo sapiens with 9 samples.

Results

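The genes described here lie in band q24 on the long arm of chromosome 8, between *MAL2* and *TOP1MT*, in cells labelled as the breast cancer line SK-BR-3. A list of 41 genes of the band was used, and 36 of them were measured by a probe set that the array annotation ties to 1 gene. The probe set of each gene was chosen by its mean over the 9 arrays, the highest being taken, and was kept where its highest log2 signal reached 5. *ENPP2*, *HAS2*, *ZNF572* and *ZFAT* did not reach that minimum, with highest signals of 4.92, 4.03, 3.02 and 4.56. *ZHX1* was present only on a probe set that names several genes. *TRMT12*, a tRNA-modifying enzyme, was matched through its current symbol, *TYW2*. Just inside the minimum lay *KHDRBS3* with a highest signal of 5.30, *ST3GAL1* with 5.42, *ZHX2* with 5.44 and *PSCA* with 5.54. *TATDN1* had 2 probe sets, which gave differences from empty vector of 0.32 and 0.35 for TFPIα and of 0.42 and 0.43 for TFPIβ.

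Tissue factor pathway inhibitor (TFPI) is the inhibitor of the first steps of blood coagulation, and its isoforms TFPIα and TFPIβ (TFPIalpha and TFPIbeta in the labels) differ in how they are held at the cell. Total RNA came from 3 stable pools of SK-BR-3, a line labelled as a tumour line of luminal-like origin: cells with the pcDNA3.1/V5/His-pTOPO vector carrying TFPIalpha cDNA, cells with the same vector carrying TFPIbeta cDNA, and cells with the empty vector. All 3 pools had gone through transfection and drug selection, named as puromycin in the labels and as neomycin in the methods, and were grown without further treatment in serum-containing RPMI medium. Each pool gave 3 arrays, labelled as biological replicates 1 to 3, so p-values measure the spread between samples of 1 pool and not between independent transfections.

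Band 8q24 is among the stretches of the genome most often gained in breast tumours. Its best known gene is *MYC*, which encodes a transcription factor that pairs with MAX and drives ribosome building, metabolism and entry into the cell cycle. The genes around *MYC* have no common function, since they encode replication factors, mitochondrial proteins, membrane traffic proteins and cell surface proteins, but they share a stretch of chromosome. Some of them, such as *ATAD2*, *DSCC1* and *MTBP*, act in DNA replication and are transcribed mainly in dividing cells. These 3 genes are called proliferation-linked below and are kept apart from the other 33. No sequence is shown for these genes.

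The *TFPI* signals used here cannot check the overexpression itself. The study states that the transfected cDNA held only the coding region, so probes in the untranslated regions of *TFPI* did not detect it. With PLIER, an algorithm that leaves out probes of low signal, the study did report *TFPI* as upregulated for both isoforms. It also summarised earlier qRT-PCR and protein measurements with more TFPI in both pools. These measurements were not repeated here. *TFPI* had log2 signals of 5.66, 5.81 and 5.51 under the TFPIα label, 5.55, 5.79 and 5.81 under the TFPIβ label, and 5.81, 6.48 and 6.45 under the empty vector label. The differences from empty vector of -0.59 and -0.53 had adjusted p of 0.335 and 1.00 (limma). The markers of the labelled line were mixed. *ERBB2*, the receptor gene amplified in SK-BR-3, lay at 5.63 to 6.24 and its neighbour *GRB7* at 5.04 to 5.30. Of the luminal markers, *KRT18* was high at 9.49 to 10.8, while *KRT8* lay at 5.68 to 6.20, *KRT19* at 4.64 to 5.25, *GATA3* at 4.86 to 5.82, *ESR1* at 3.46 to 3.81 and *EPCAM* at 2.56 to 2.92. The basal markers *KRT5*, *KRT14* and *VIM* lay at 12.4 to 12.8, 12.0 to 12.7 and 10.3 to 10.7. Since several of these go against a luminal line with amplified *ERBB2*, the groups are named below by what their arrays are labelled. Arrays had median signals of 4.78 to 4.88 over all 33297 probe sets, and the deposited values give no depth or scan batch.

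In the arrays labelled TFPIα, the listed 8q24 genes lay mostly above empty vector. Of the 36 genes, 31 had a positive difference and 5 a negative one, with a median of 0.36 on the log2 scale (the size of the difference of *TMEM65*, a fold of 1.28), against a median of 0.00 over the 17482 probe sets tested. Members other than the proliferation-linked ones had a median of 0.32. In the arrays labelled TFPIβ, 33 differences of the listed genes were positive and 3 negative, against 50.5% positive over all probe sets. Their median was again 0.36, and the median without the proliferation-linked genes was 0.33. The list does not stand for all genes of the stretch. Of the 25 other genes measured between *MAL2* and *TOP1MT*, 9 were above empty vector for TFPIα (median -0.06) and 16 for TFPIβ (median 0.09). Between the arrays labelled TFPIβ and TFPIα the median difference was -0.06, with 15 listed genes above 0 and 21 below, against 49.7% above over all probe sets. Both comparisons with empty vector share the same 3 control arrays, so their values are given side by side and not as repeats of each other. In RNA from whole cultures, more cells of a kind and more RNA per cell cannot be told apart.

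**Figure D1:**
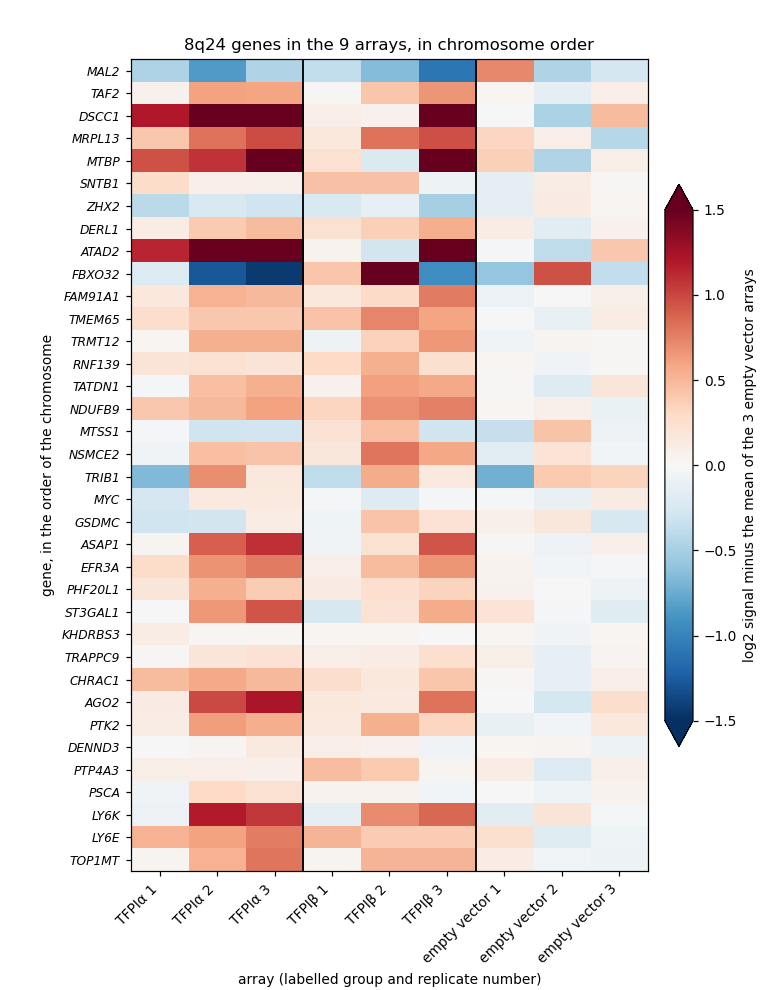
Each row is 1 of the 36 measured 8q24 genes, from *MAL2* to *TOP1MT* in chromosome order, and each column is 1 array. Colour gives the log2 signal minus the mean of the 3 empty vector arrays, in red above and in blue below, with the scale ending at 1.5 in either direction. TFPIα replicates 2 and 3 and TFPIβ replicates 2 and 3 are red over most of the rows, whereas replicate 1 of both groups is paler in most rows, and the rows of *MYC* and *KHDRBS3* are pale in every array.

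No single gene of the band passed the threshold, a fold of at least 2 together with an adjusted p (Benjamini-Hochberg) under 0.05, in any of the 3 comparisons. This count of 0 of 36 stands against 0.00572% of all probe sets called for TFPIα minus empty vector (1 probe set), 0% for TFPIβ minus empty vector and 0% for TFPIβ minus TFPIα. The lowest adjusted p among the genes was 0.289 for TFPIα, 0.665 for TFPIβ and 0.532 between the isoforms (limma). At an unadjusted p under 0.05, 13 genes were higher and 1 lower for TFPIα, against 8.59% and 5.58% of all probe sets. For TFPIβ 10 were higher and 1 was lower, against 2.49% and 2.23%. Between TFPIβ and TFPIα none was higher and 1 lower, against 3.94% and 4.7%. All arrays labelled TFPIα lay above all empty vector arrays for 12 genes and below them for 1, against 14.4% and 8.85% of all probe sets. For TFPIβ these counts were 10 and 0, against 3.43% and 3.74%, and between the isoforms 2 and 2, against 6.15% and 7.1%. With 3 arrays a group, an exact two-sided permutation test of 1 gene cannot go below p = 0.1.

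The counts at the unadjusted threshold moved with the arrays used, as did the shares of all probe sets. For TFPIα, 21 genes were higher without TFPIα replicate 1 (8.53% of all probe sets) and 7 without TFPIα replicate 2 (4.52%). There were 7 without TFPIα replicate 3 (3.63%) and 8 without empty vector replicate 2 (4.06%). With the replicate number as a block, 20 genes were higher for TFPIα, against 11.9% of all probe sets, and none was called (lowest adjusted p 0.183, limma). The same block gave 12 genes higher for TFPIβ, against 3.64%, and none called (lowest adjusted p 0.363, limma). For TFPIβ, 16 genes were higher without TFPIβ replicate 1 (2.71% of all probe sets) and 6 without TFPIβ replicate 3 (3.02%). There were 5 without empty vector replicate 2 (2.76%) and 6 without empty vector replicate 3 (1.6%). The median difference for TFPIβ was 0.21 without TFPIβ replicate 3. That between the isoforms was -0.22 without TFPIα replicate 1, and it turned to 0.03 without TFPIα replicate 3 and to 0.04 without TFPIβ replicate 1.

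**Figure D2:**
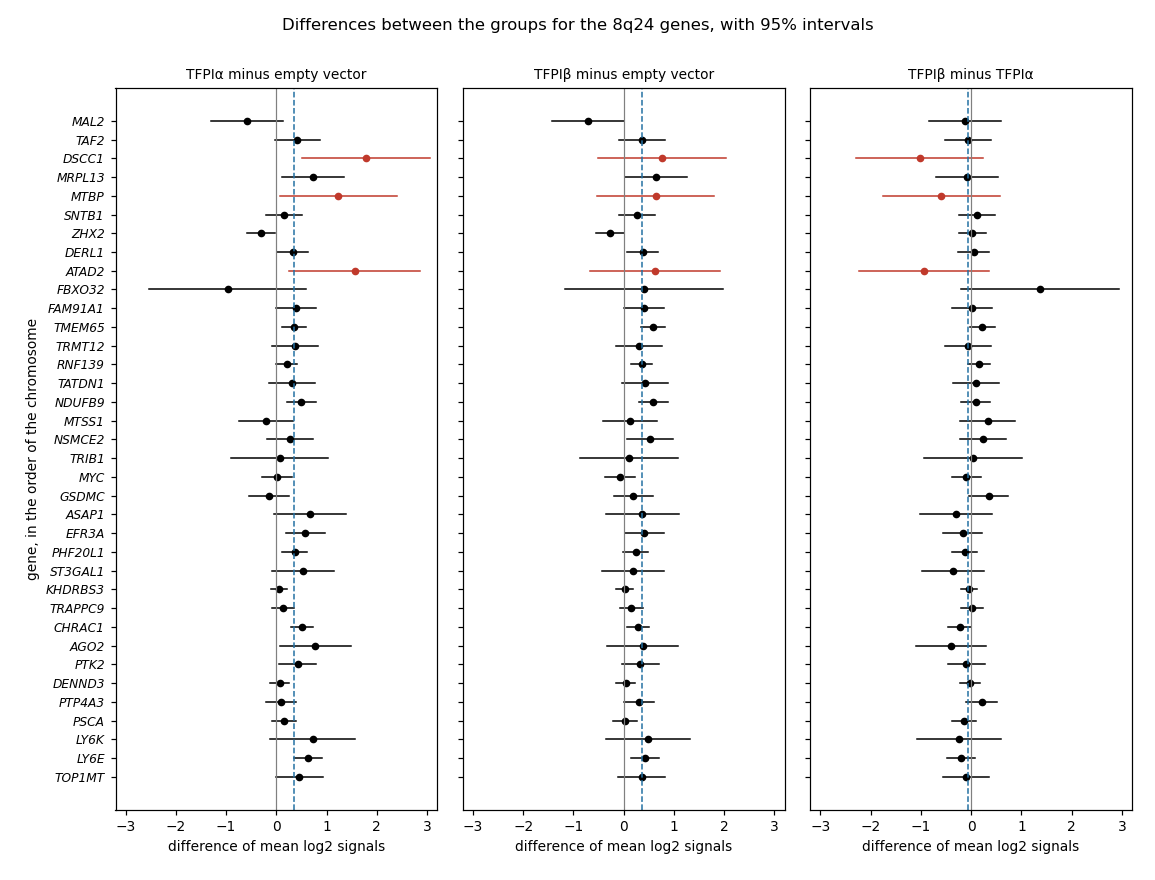
The 3 panels give, for each of the 36 genes in chromosome order, the difference of mean log2 signals between 2 groups (points) and its 95% interval from limma (bars), with the proliferation-linked genes *DSCC1*, *MTBP* and *ATAD2* in red. The dashed line marks the median over the genes, 0.36 in the first and second panels and -0.06 in the third. Most points of the first and second panels lie to the right of 0, and in the third panel they lie on both sides.

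The largest differences for TFPIα belonged to the 3 proliferation-linked genes. *ATAD2* encodes a bromodomain ATPase that binds chromatin. Its log2 signals were 7.57, 8.09 and 8.29 in TFPIα replicates 1 to 3, 6.48, 6.15 and 8.53 in TFPIβ, and 6.41, 6.04 and 6.83 in empty vector. The TFPIα arrays lay above all empty vector arrays, whereas TFPIβ replicate 3 was the highest of all 9 and the other TFPIβ arrays lay within the range of empty vector. The differences from empty vector were 1.56 ± 0.56 (SE, adjusted p = 0.336) for TFPIα and 0.63 ± 0.56 (adjusted p = 1.00) for TFPIβ, with 3 arrays a group.

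*DSCC1*, a subunit of the clamp loader used in sister chromatid cohesion, had signals of 5.76, 6.50 and 6.76 in TFPIα, 4.65, 4.63 and 6.67 in TFPIβ, and 4.56, 4.08 and 5.04 in empty vector. *MTBP*, which acts in the firing of replication origins, had 5.76, 5.89 and 6.47, then 5.03, 4.59 and 6.72, and then 5.16, 4.36 and 4.90. In both genes the TFPIα arrays and TFPIβ replicate 3 formed the high end and did not overlap the other 5 arrays. The differences from empty vector were 1.78 and 0.76 for *DSCC1* and 1.23 and 0.64 for *MTBP*, for TFPIα and TFPIβ respectively, none of them past the threshold.

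The remaining genes of genome upkeep had smaller differences. *NSMCE2*, a SUMO ligase of the SMC5/6 complex, was 0.28 above empty vector in TFPIα and 0.52 in TFPIβ, and *TATDN1*, a predicted deoxyribonuclease, 0.32 and 0.42. All 5 genes of this role were above empty vector in both comparisons.

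The proliferation-linked genes were set against a proliferation index, the mean deviation of 30 cell cycle genes, none of them from 8q24, from their own means over the 9 arrays. The index was 0.66, 0.72 and 0.79 in TFPIα replicates 1 to 3, -0.17, -1.46 and 0.77 in TFPIβ, and -0.05, -1.09 and -0.17 in empty vector. TFPIβ replicate 3 therefore stood with the TFPIα arrays, and replicate 2 was the lowest of its group in both TFPIβ and empty vector. The group means were 0.72 ± 0.06 for TFPIα, -0.29 ± 1.12 for TFPIβ and -0.44 ± 0.57 for empty vector (SD, n = 3).

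Within groups, 3 of the 36 genes changed with the index at an adjusted p under 0.05 (limma, group as a covariate). With the replicate block added, none of the 36 was called (0.4% of all probe sets), so these calls hold only where the pairing is left out. *MTBP* rose by 0.88 ± 0.17 per unit of the index (SE, adjusted p = 0.0298). *ATAD2* and *DSCC1* had slopes of 0.93 and 0.84, with adjusted p of 0.058 and 0.0997. *FBXO32*, which encodes the ubiquitin ligase subunit atrogin-1, fell by 1.25 ± 0.19 (adjusted p = 0.0118), and *MTSS1*, which encodes a scaffold of membrane and actin, fell by 0.40 ± 0.09 (adjusted p = 0.0431). The 1 positive and 2 negative calls stand against 4.53% and 1.29% of all probe sets, and the 4 positive and 4 negative slopes at an unadjusted p under 0.05 against 15.4% and 8.76%. The 33 genes other than the proliferation-linked ones had a median slope of 0.02, with 18 positive and 15 negative.

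The number of genes called for the index depended on most of the arrays, and the share of all probe sets called moved with it. It was 1 without TFPIα replicate 2 (3.58% of all probe sets), 2 without TFPIα replicate 3 (4.15%), 5 without TFPIβ replicate 1 (6.3%), and 0 without TFPIβ replicate 2 (0.303%), TFPIβ replicate 3 (1.37%) or empty vector replicate 2 (2.04%). It was 1 without empty vector replicate 1 (3%) or 3 (3.62%). These shares stand against 5.82% with no array left out, and under the replicate block the number was 0 (0.4%).

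**Figure D3:**
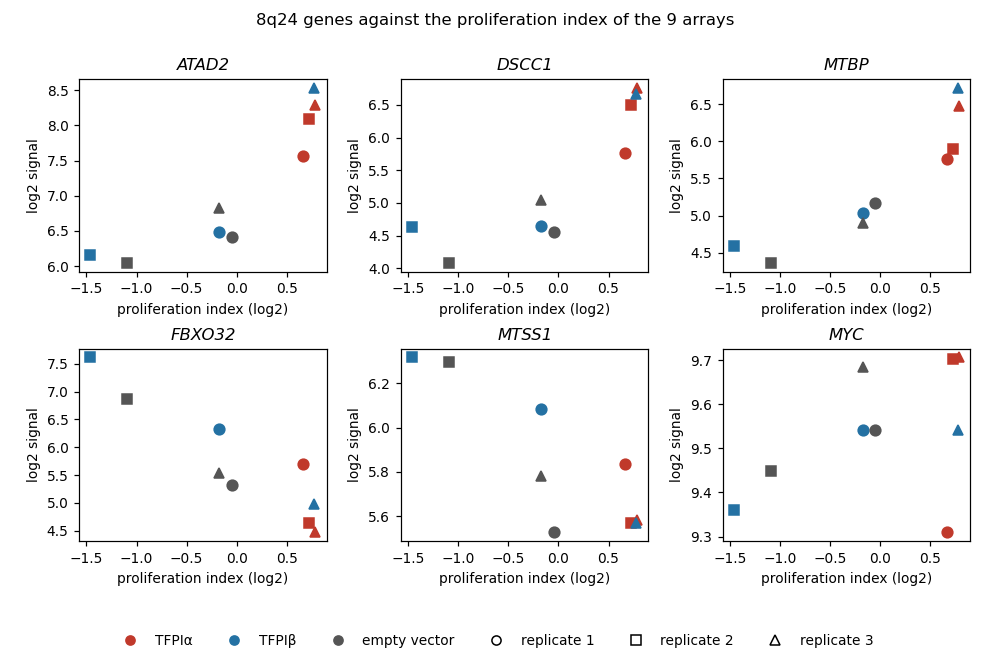
Each panel plots the log2 signal of 1 gene (vertical axis) against the proliferation index of the array (horizontal axis, log2 units) in the 9 arrays, with colour for the labelled group and shape for the replicate number. *ATAD2*, *DSCC1* and *MTBP* are highest in the 4 arrays with an index of 0.66 to 0.79, *FBXO32* and *MTSS1* are highest in TFPIβ replicate 2 and empty vector replicate 2, and *MYC* spans only 9.31 to 9.71.

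With the index as a covariate of the group comparison, an alternative chosen after the values were seen, the TFPIα difference was 0.47 for *ATAD2*, 0.80 for *DSCC1* and 0.21 for *MTBP*. The median over the 36 genes was then 0.34 for TFPIα and 0.34 for TFPIβ. The number of genes higher at an unadjusted p under 0.05 was 8 for TFPIα, against 2.83% of all probe sets, and 9 for TFPIβ, against 4.16%.

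*MYC* did not differ between the groups beyond the spread of its arrays. Its log2 signals were 9.31, 9.70 and 9.71 in TFPIα, 9.54, 9.36 and 9.54 in TFPIβ, and 9.54, 9.45 and 9.68 in empty vector. The groups overlapped in all 3 comparisons. The difference from empty vector was 0.01 for TFPIα, with a 95% interval of -0.28 to 0.31, and -0.08 for TFPIβ, with an interval of -0.37 to 0.22. Differences within these intervals could not be told from 0 with these arrays. Its slope on the proliferation index was 0.11 ± 0.08 (SE, adjusted p = 0.489).

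Lists of the *MYC* network and of known *MYC* target genes were followed beside it. Of 23 measured target genes, 22 were above empty vector in TFPIα with a median of 0.34, and 13 were above it in TFPIβ with a median of 0.03. None was called, and 5 and 0 of them were higher at an unadjusted p under 0.05, against 8.59% and 2.49% of all probe sets. In TFPIα the lowest p belonged to *FBL*, the methyltransferase of ribosomal RNA, with a difference of 0.34. Next came the ribosome assembly factor *MRTO4* with 0.92, the growth regulator *PA2G4* with 0.55 and the ribosome assembly factor *BOP1* with 0.76. *BOP1* itself lies on chromosome 8, beyond *TOP1MT*. Of the 23 target genes, 21 had a positive slope on the proliferation index and 3 were called, against 4.53% of all probe sets. The 16 measured genes of the network had medians of 0.10 and -0.04. *SKP2*, a ubiquitin ligase subunit that acts on MYC, was 0.55 above empty vector in TFPIα and 0.15 in TFPIβ, with adjusted p of 0.335 and 1.00.

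The transcription, chromatin and RNA genes other than *MYC* included the member with the lowest p for TFPIα. *CHRAC1*, a histone-fold subunit of a nucleosome-sliding complex, had signals of 7.25, 7.35 and 7.26 in TFPIα, 7.04, 6.93 and 7.20 in TFPIβ, and 6.79, 6.65 and 6.88 in empty vector. The 3 groups did not overlap, with TFPIα highest and empty vector lowest. The differences from empty vector were 0.51 ± 0.10 for TFPIα (SE, fold 1.42, adjusted p = 0.289) and 0.28 ± 0.10 for TFPIβ (fold 1.22, adjusted p = 1.00). *CHRAC1* was also the 1 gene that was lower in TFPIβ than in TFPIα at an unadjusted p under 0.05, by 0.23 (adjusted p = 0.532).

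The other genes of this role had values on both sides of 0. *AGO2*, the Argonaute protein that cleaves RNA targets of small RNAs, was 0.78 above empty vector in TFPIα and 0.38 in TFPIβ, and the array values ran from 5.998 in empty vector replicate 2 to 7.48 in TFPIα replicate 3. *TAF2*, a subunit of the general factor TFIID, was 0.42 and 0.36 above, *PHF20L1*, a reader of methylated lysine, 0.36 and 0.24, and *TRMT12* 0.37 and 0.31. *KHDRBS3*, a splicing regulator, stayed within 5.13 and 5.30 in all 9 arrays. *ZHX2*, a transcriptional repressor, was below empty vector by 0.31 and 0.28 and was the 1 gene lower at an unadjusted p under 0.05 in each of these comparisons, with all TFPIα arrays below all empty vector arrays.

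All 4 mitochondrial genes were above empty vector in both comparisons. *NDUFB9*, a subunit of respiratory complex I, had signals of 9.52, 9.60 and 9.73 in TFPIα, 9.44, 9.80 and 9.87 in TFPIβ, and 9.15, 9.19 and 9.01 in empty vector. *TMEM65*, which encodes a protein of the inner mitochondrial membrane, had 6.40, 6.53 and 6.53, then 6.55, 6.86 and 6.72, and then 6.12, 6.02 and 6.24. Both genes were higher in every array labelled TFPIα or TFPIβ than in any empty vector array.

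The differences for *NDUFB9* were 0.50 ± 0.13 for TFPIα and 0.59 ± 0.13 for TFPIβ (SE, adjusted p = 0.335 and 0.665). Those for *TMEM65* were 0.36 ± 0.11 and 0.58 ± 0.11 (adjusted p = 0.335 and 0.665), and its TFPIβ arrays also lay above its TFPIα arrays, by 0.23 on average. *MRPL13*, a protein of the large mitochondrial ribosomal subunit, was 0.73 and 0.65 above empty vector, and *TOP1MT*, the mitochondrial topoisomerase, 0.46 and 0.36.

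Among the 9 genes of the endoplasmic reticulum, the Golgi and membrane traffic, 8 were above empty vector in each comparison. *EFR3A*, which anchors a lipid kinase at the plasma membrane, had signals of 8.25, 8.64 and 8.75 in TFPIα, 8.07, 8.45 and 8.63 in TFPIβ, and 8.03, 7.93 and 7.95 in empty vector. *RNF139*, a ubiquitin ligase of the endoplasmic reticulum, had 7.72, 7.75 and 7.72, then 7.82, 8.06 and 7.76, and then 7.56, 7.47 and 7.54. Empty vector was lowest in both genes without overlap, and replicate 1 of either TFPI group lay closest to it for *EFR3A*.

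The differences were 0.58 and 0.41 for *EFR3A* and 0.21 and 0.36 for *RNF139*, with adjusted p of 0.335 to 1.00. *FAM91A1*, which acts in vesicle capture at the Golgi, was 0.39 and 0.41 above empty vector, *DERL1*, a channel component for misfolded proteins, 0.32 and 0.38, and *ASAP1*, a GTPase-activating protein for ARF, 0.67 and 0.37. *ST3GAL1*, a sialyltransferase, was 0.53 and 0.18 above, but it was under 5 in all empty vector arrays and passed the minimum only through TFPI arrays, so the filter favoured its direction here and in the counts above. *TRAPPC9*, a tethering factor, was 0.14 and 0.15 above empty vector, and *DENND3*, an exchange factor for a Rab GTPase, 0.06 and 0.04. *MAL2*, a proteolipid of apical transport, was the exception, with differences of -0.58 and -0.70 and its highest signal, 9.17, in empty vector replicate 1.

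Of the cell surface genes, *LY6E* had the lowest p. It encodes a lipid-anchored protein of the Ly6 family and had signals of 8.40, 8.48 and 8.64 in TFPIα, 8.39, 8.25 and 8.26 in TFPIβ, and 8.11, 7.70 and 7.82 in empty vector. All 3 groups were apart, with TFPIα highest. The differences from empty vector were 0.63 ± 0.12 (SE, fold 1.55, adjusted p = 0.289) and 0.42 ± 0.12 (fold 1.34, adjusted p = 0.954).

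Its relatives differed from it. *LY6K* had differences of 0.72 and 0.48, which came from replicates 2 and 3, at 8.08 to 8.56 in both TFPI groups, while replicate 1 lay at 7.29 and 7.24, within the range of 7.21 to 7.56 in empty vector. *PSCA*, prostate stem cell antigen, was 0.16 and 0.02 above empty vector. *SNTB1*, a syntrophin, was 0.15 and 0.27 above. *GSDMC*, a pore-forming gasdermin, had signals of 7.76, 7.78 and 8.16 in TFPIα, 7.99, 8.48 and 8.27 in TFPIβ, and 8.13, 8.22 and 7.81 in empty vector, and the groups overlapped in all comparisons.

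Of the signalling, cytoskeleton and protein turnover genes, *FBXO32* had signals of 5.70, 4.64 and 4.47 in TFPIα, 6.33, 7.62 and 4.97 in TFPIβ, and 5.32, 6.86 and 5.53 in empty vector. The groups overlapped, and the 2 arrays with the lowest proliferation index held the 2 highest values. Its difference was -0.97 ± 0.69 for TFPIα and 0.40 ± 0.69 for TFPIβ (SE, adjusted p = 0.51 and 1.00), and 1.37 between the isoforms (adjusted p = 0.532).

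*PTK2*, focal adhesion kinase, was 0.43 and 0.33 above empty vector. *MTSS1* had differences of -0.21 and 0.12, and *PTP4A3*, the phosphatase PRL-3, 0.09 and 0.30. *TRIB1*, a pseudokinase that feeds C/EBP factors to degradation, had differences of only 0.07 and 0.11, but its signals were 5.09, 6.45 and 5.91 in TFPIα, 5.37, 6.30 and 5.90 in TFPIβ, and 5.02, 6.14 and 6.09 in empty vector. Replicate 1 was the lowest in every group.

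The genes were also compared by replicate number. In a fit of group and replicate number, no gene was called for the replicate number, as over all probe sets (0%), and the lowest adjusted p, 0.132, belonged to *TRIB1* (limma). At an unadjusted p under 0.05 there were 9 of 36 genes, against 16% of all probe sets. *NSMCE2* had mean signals of 7.36, 7.86 and 7.70 for numbers 1, 2 and 3, and *LY6K* 7.24, 8.07 and 8.001. Set against the mean of the empty vector arrays, the median over the 36 genes was 0.08, 0.50 and 0.48 in TFPIα replicates 1 to 3 and 0.10, 0.36 and 0.47 in TFPIβ replicates 1 to 3. Replicate 1 of both groups thus lay nearer to the empty vector arrays, at 0.02, -0.05 and 0.03, than to its own group. Of the 36 genes, 28 and 27 were above all empty vector arrays in TFPIα replicates 2 and 3, and 27 and 25 in TFPIβ replicates 2 and 3, but 14 and 13 in replicate 1. Empty vector replicate 2 held the lowest value of 17 genes. Shares over all probe sets were not counted for these array counts, so they are not read as particular to the listed genes. The proliferation index of the arrays is given above, and its part in the division by replicate number was not tested.

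The shift was not held to the listed genes. Over the measured genes of chromosome 8 the median difference was 0.15 for TFPIα and 0.16 for TFPIβ, the highest of 23 chromosomes in both comparisons. The next highest was 0.05 for TFPIα. When the 397 measured genes of the chromosome were taken in order and divided into 8 parts of nearly equal number, a division chosen after the values were seen, the medians for TFPIα were -0.01, 0.07, 0.11, 0.30, 0.40, 0.36, 0.06 and 0.11. For TFPIβ they were -0.01, -0.03, 0.07, 0.32, 0.39, 0.36, 0.13 and 0.16. The listed genes lie in parts 6 and 7, with 17 and 19 of them. Parts 4 and 5, which run from *CHCHD7* to *ANKRD46* on the long arm and hold none of the listed genes, had medians of 0.30 to 0.40, against 0.36 in part 6.

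**Figure D4:**
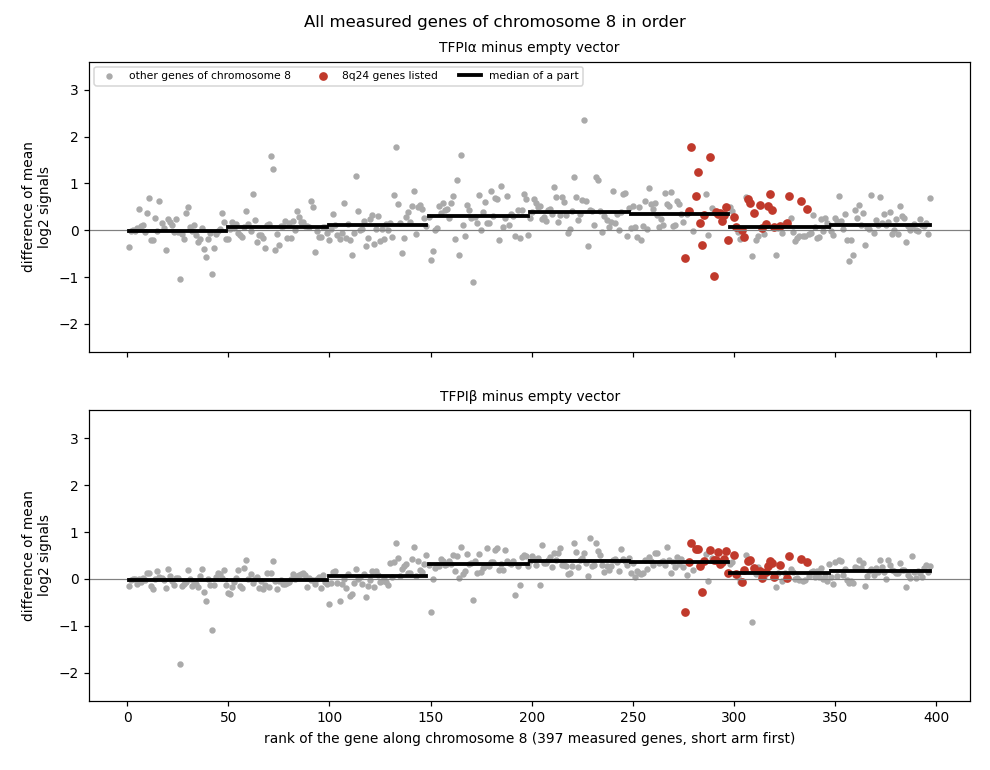
The 397 measured genes of chromosome 8 are placed by rank along the chromosome, short arm first (horizontal axis), against their difference of mean log2 signals (vertical axis) for TFPIα minus empty vector (top) and TFPIβ minus empty vector (bottom). Red points are the 36 listed genes, grey points the others, and black bars the medians of the 8 parts. The bars lie near 0 in parts 1 and 2, between 0.30 and 0.40 in parts 4 to 6, and at 0.06 to 0.16 in parts 7 and 8.

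The same division by array showed the replicate numbers apart. In part 5 the median shift from the empty vector mean was 0.54 and 0.51 in TFPIα replicates 2 and 3 and 0.44 and 0.52 in TFPIβ replicates 2 and 3. It was 0.17 and 0.09 in replicate 1 of these groups, and between -0.01 and 0.05 in the empty vector arrays. In part 1 all 9 arrays lay between -0.06 and 0.04. Over the 10828 genes of all other chromosomes the medians were between -0.03 and 0.03.

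**Figure D5:**
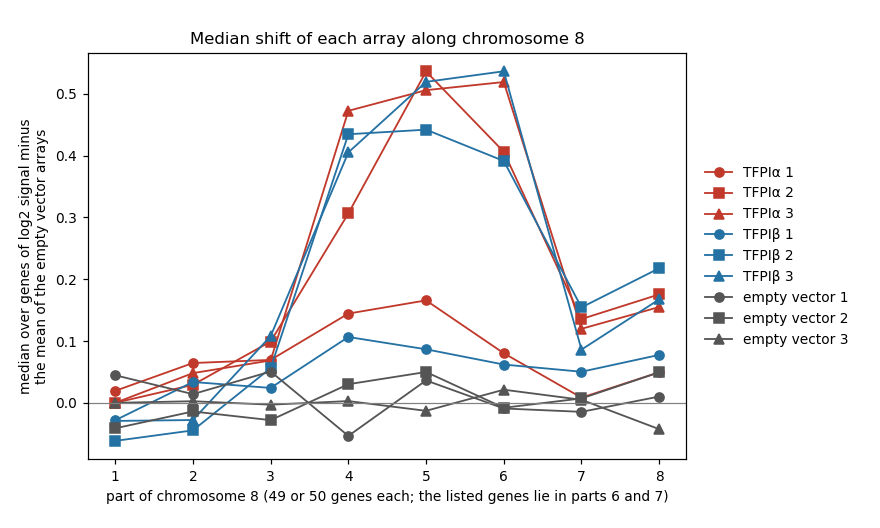
Each line is 1 array, with colour for the labelled group and shape for the replicate number. The vertical axis is the median over the genes of a part of the log2 signal minus the mean of the empty vector arrays, and the horizontal axis is the part of chromosome 8. TFPIα and TFPIβ replicates 2 and 3 reach 0.31 to 0.54 in parts 4 to 6, replicate 1 of both groups stays at 0.06 to 0.17 there, and the empty vector arrays stay near 0.

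Within the band, genes with higher signals had larger medians, which was not tested. The 24 listed genes with a mean signal of at least 6 had medians of 0.40 for TFPIα and 0.37 for TFPIβ, and the 12 under 6 had 0.08 and 0.15. The 25 other genes measured between *MAL2* and *TOP1MT* had medians of -0.06 and 0.09. Among them, the 10 with a mean signal of at least 6 had 0.33 and 0.28, and the 15 under 6 had -0.12 and 0.03. On the remaining chromosomes, genes with a mean signal of at least 6 had medians of 0.04 and -0.02. Neighbouring listed genes had Spearman correlations of their differences, across 35 neighbouring pairs, of 0.18 for TFPIα and 0.28 for TFPIβ. These are correlations across genes of the same arrays, which are not independent replicates.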

How the data were processed

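Human Gene 1.0 ST arrays (Affymetrix) of 9 RNA samples were analysed. The authors processed the scans with RMA in Partek (versions not given in the sources used here), so each deposited value is the log2 signal of a probe set in an array, with dim probe sets left in. The log base was read from their range. Genes were named from GEO's platform annotation, and chromosome order came from RefSeq (GRCh38.p14).

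Probe sets with a highest signal of at least 5 were kept (17482 of 33297). Of these, 11838 name 1 gene, 1150 several and 4494 none. A model of the 3 groups was fitted to all 9 arrays (limma 3.58.1, R 4.3.3). The study states the same filter on signal but kept more transcripts, and it reported many more as differentially expressed for both isoforms. Here 1 probe set was called for TFPIα and 0 for TFPIβ against empty vector, also at an adjusted p under 0.10. The reason for this gap was not tested. The code was checked on simulated data with independent noise and no pairing of replicates, which does not show its power on the real arrays. Figures used matplotlib 3.10.9 in Python 3.11.15. Genes shown in every array were *MYC*, the proliferation-linked genes and the 5 with the lowest p in each comparison. *TRIB1* was added after its values were seen. The genes, lists and tests were chosen with earlier results of these data known.

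Samples with the same replicate number deviated together (correlations of 0.14 to 0.59 over 9 pairs, against -0.51 to 0.27 over 18 others). Of the 9 arrays, 8 were closest to one with their number in another group. The ranges overlap, and deviations were taken from group means, which by itself sets part of this contrast. The labels do not state a pairing by number, so it is read from these values. The reported comparisons of groups and slopes on the index do not hold the replicate number. Their standard errors, intervals and p-values therefore leave this pairing out. The replicate block was run as an alternative.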

Additional observations from a re-analysis of the deposited data

How the results depend on the processing

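The count of 0 genes called held in every comparison of groups and for the replicate number under all alternatives run for each, which were, in the comparisons of groups, an adjusted p under 0.10, no variance moderation, a trended and robust prior, only the groups compared, the replicate block, no filter or a minimum of 6, arrays centred on their median, the mean of a gene's probe sets, and each array left out. Leaving out each array gave medians of 0.29 to 0.47 for TFPIα, 0.21 to 0.41 for TFPIβ and -0.22 to 0.036 between the isoforms. It gave 7 to 21 genes higher at an unadjusted p under 0.05 for TFPIα, against 3.63% to 11.8% of all probe sets. For TFPIβ it gave 5 to 16, against 1.6% to 3.11%. It gave 0 to 5 genes called for the proliferation index, against 0.303% to 6.3%. The number higher for TFPIα was 20 with the replicate block (11.9%) and 8 with the proliferation index as a covariate (2.83%). For TFPIβ the number was 6 without variance moderation (2.42%) and 17 without the 3 arrays numbered 1 (2.97%). Genes called for the index were 1 with no filter (1.75% of all probe sets), 5 with only the S-phase genes of the index (7.46%), 1 with only its mitotic genes (2.91%), 0 with the replicate block (0.4%) and 6 with no group term (20.1%). The replicate block changed no other call. The proliferation index as a covariate, the removal of the arrays numbered 1, and the alternatives for the counts at an unadjusted p were chosen after seeing the data. The cause of these changes was not tested. Small differences of genes near the minimum signal of 5 are the least certain.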
